A study of Mus musculus with 2 samples.

Results

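The insulin-like growth factor (IGF) system was followed across the cell types of mouse limb muscle through 9 genes, which are the ligands Igf1 and Igf2, the receptor Igf1r, and the binding protein genes Igfbp2, Igfbp3, Igfbp4, Igfbp5, Igfbp6 and Igfbp7. These were taken by gene symbol from the 32285 genes of the deposited count tables, each symbol matched 1 row, and all 9 were kept. The study sorted live mononuclear cells from limb muscle of aged C57BL/6 mice and ran them on the 10x Genomics droplet platform. The DMSO group was 1 library from mice given the vehicle DMSO, and the MVC group was 1 library from mice injected intraperitoneally with Maraviroc (MVC), a small-molecule drug. The number of mice behind each library and the regime of the sequenced mice were not given in the labels. After filtering, 5437 DMSO cells and 5454 MVC cells were kept, with a median of 5802 and 5195 unique molecular identifiers (UMIs) per cell. Since each group was 1 library, no difference could be set against a spread between mice, no test was possible, and every interval below is a 95% interval that covers counting error only.

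IGF-I and IGF-II signal through the receptor tyrosine kinase encoded by Igf1r, and in skeletal muscle IGF-I is known as a stimulus of protein synthesis and of satellite cell growth. Most IGF in tissue is held by secreted binding proteins, which lengthen its life, limit its access to the receptor, and release it when proteases cleave them. IGFBP-7 binds IGFs weakly and is known mostly as a vascular basement membrane protein, and several binding proteins, among them IGFBP-3 and IGFBP-5, belong to the proteins that senescent cells secrete.

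The promoters of Igf1, Igfbp5 and Igfbp3 are printed because the main differences between the libraries were in these genes, with Igf1 and Igfbp5 at higher and Igfbp3 at lower levels in the MVC library across most stromal clusters. Each run covers 250 bases before to 50 bases after a transcription start, 5′ to 3′ on the gene's own strand, from RefSeq on GRCm38.p6, and lies at chr10:87860861-87861160 on the plus strand, chr1:72874816-72875115 on the minus strand and chr11:7213874-7214173 on the minus strand. Capitals mark matches on either strand to TATANA, a common form of the TATA box, which was the only 1 of the 3 motifs searched that occurred here.
Igf1: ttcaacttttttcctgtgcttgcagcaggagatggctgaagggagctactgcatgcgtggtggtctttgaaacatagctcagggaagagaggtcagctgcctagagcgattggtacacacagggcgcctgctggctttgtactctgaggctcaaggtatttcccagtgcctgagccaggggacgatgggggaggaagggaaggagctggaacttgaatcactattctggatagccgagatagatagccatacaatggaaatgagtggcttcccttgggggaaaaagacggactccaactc
Igfbp5: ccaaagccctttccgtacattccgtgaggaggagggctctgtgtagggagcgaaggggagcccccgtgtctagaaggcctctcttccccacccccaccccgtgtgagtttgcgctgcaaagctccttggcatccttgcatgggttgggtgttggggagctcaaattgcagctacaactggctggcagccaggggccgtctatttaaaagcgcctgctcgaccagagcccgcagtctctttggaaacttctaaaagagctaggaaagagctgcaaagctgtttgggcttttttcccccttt
Igfbp3: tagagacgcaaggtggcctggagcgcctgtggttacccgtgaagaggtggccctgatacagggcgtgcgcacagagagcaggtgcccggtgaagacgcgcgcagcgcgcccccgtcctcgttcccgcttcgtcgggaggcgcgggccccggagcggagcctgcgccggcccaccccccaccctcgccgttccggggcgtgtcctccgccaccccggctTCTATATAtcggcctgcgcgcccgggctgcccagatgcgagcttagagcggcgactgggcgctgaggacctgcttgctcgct

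The Igfbp3 promoter held overlapping TATANA matches, and the Igf1 and Igfbp5 promoters held none. GGGCGG (a GC box) and TTCNNNGAA (a STAT motif) were found in none of them. Of 32544 distinct promoters of this length, 24.4% held TATANA, 35.9% GGGCGG and 8.33% TTCNNNGAA. The G and C content was 52.3% for Igf1, 56.3% for Igfbp5 and 71.7% for Igfbp3. In the genome, Igfbp5 (chromosome 1, 72857932 to 72874884, GRCm38) lies next to Igfbp2 with 5457 bases between them, and Igfbp3 (chromosome 11, 7206086 to 7213923) lies 3539 bases from Igfbp1. Igf1 spans 87858265 to 87937042 on chromosome 10. Its printed run (87860861 to 87861160) thus covers a transcription start inside this span, and the 5′ end of the span was not searched.

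Cells were grouped without using the 9 genes or the other IGF pathway genes, so the levels across cell classes were not set by the grouping. The 27 clusters gave 15 named classes, called "X-like" after their marker genes. The largest were endothelial (EC)-like cells, fibro-adipogenic progenitor (FAP)-like cells, which are the interstitial stromal progenitors of muscle, and tenocyte-like cells. Levels are counts per 1000000 UMIs of the class and library (CPM), and they were compared between classes and libraries only within a gene. The 8 cell barcodes that the libraries shared were left in.

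**Figure D1:**
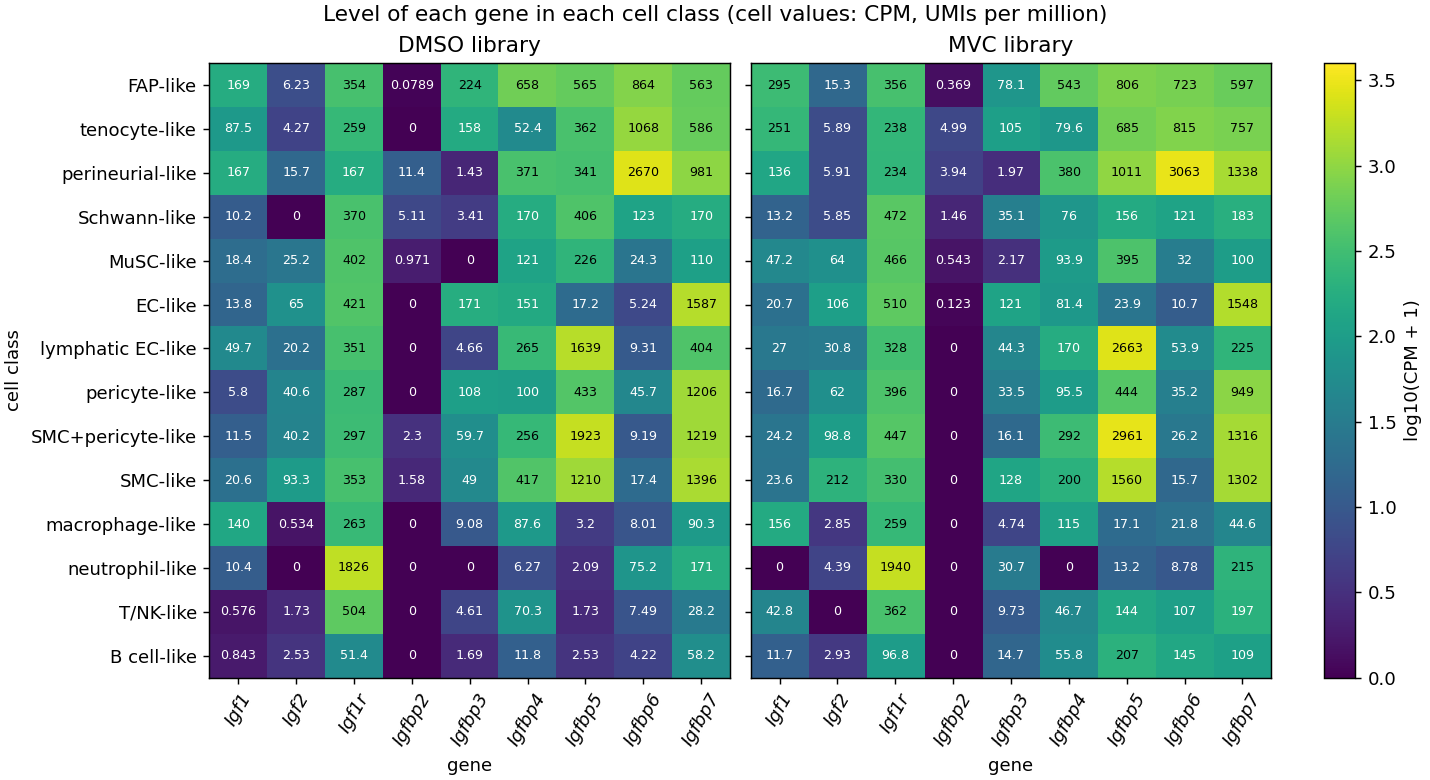
Level of each gene in CPM (number in each field; colour, log10 of CPM + 1) in the 14 classes with at least 30 cells in each library (rows), for the DMSO library on the left and the MVC library on the right. The genes differed in their main class, with Igfbp6 at 2669.9 and 3063 CPM in perineurial-like cells and Igfbp7 at 1587 and 1548 CPM in EC-like cells.

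Each cluster was given the same weight in both libraries, namely its share of the UMIs of both libraries together. With these weights, Igf1, Igf2 and Igfbp5 were higher and Igfbp3 was lower in the MVC library by more than 1.5-fold. Igf1r, Igfbp4, Igfbp6 and Igfbp7 moved by less. The weighted ratio of MVC over DMSO was 1.62 (1.55 to 1.69) for Igf1, 1.58 (1.46 to 1.71) for Igf2, 1.55 (1.52 to 1.58) for Igfbp5 and 0.515 (0.491 to 0.539) for Igfbp3. It was 1.06 (1.04 to 1.09) for Igf1r, 1.07 (1.05 to 1.08) for Igfbp7, 0.862 (0.844 to 0.881) for Igfbp6 and 0.785 (0.764 to 0.807) for Igfbp4. Igfbp2 reached 0.394 and 0.863 CPM and had too few UMIs to be judged. A gene was counted as past the fold when it had at least 50 UMIs, its ratio was at least 1.5 either way and its interval did not include 1. By this rule 4 of the 8 measured members passed, and 9.12% of all 16805 genes with as many UMIs did. The median gene had a log2 ratio of 0.06 in this weighting, and when the libraries were scaled by their median gene ratio Igfbp5 came to a log2 ratio of 0.57, just short of the 1.5-fold line, while the other 3 stayed past it.

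**Figure D2:**
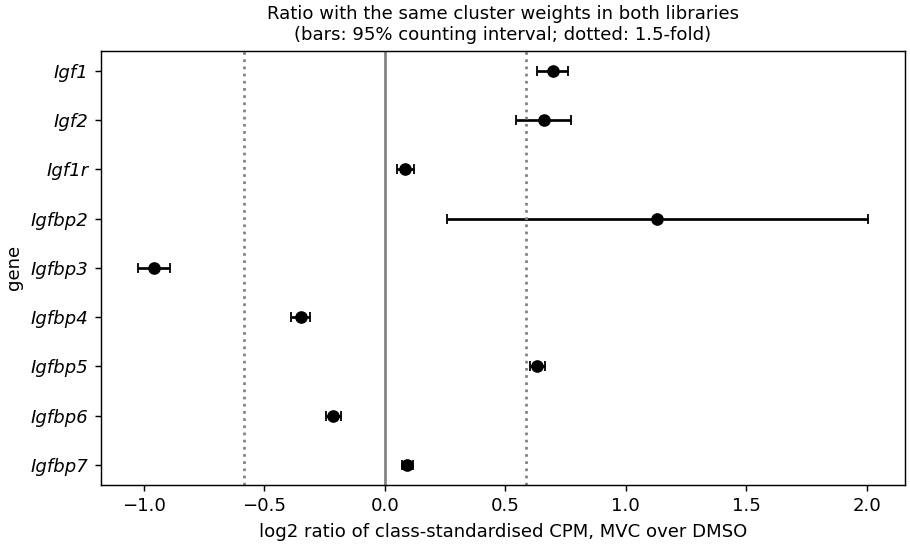
Log2 ratio of MVC over DMSO for each gene, with each cluster weighted in both libraries by its share of the UMIs of both together. Points have bars for the 95% counting interval, and dotted lines mark 1.5-fold either way. The points of Igf1, Igf2 and Igfbp5 lie beyond the line on the right, Igfbp3 at -0.96 lies beyond it on the left, and the wide bar of Igfbp2 reflects its few UMIs.

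Igf1, the ligand that growth hormone induces in liver and that muscle stroma and macrophages also make, came mainly from FAP-like cells, which held 68.3% and 68.2% of its UMIs in the DMSO and MVC libraries. FAP-like cells had 169 CPM (162 to 176) in the DMSO library and 295 CPM (286 to 305) in the MVC library, and their ratio was 1.75 (1.66 to 1.85). Perineurial-like cells, with 167 and 136 CPM in the DMSO and MVC libraries (79 and 71 cells), and macrophage-like cells, with 140.5 and 156 CPM, did not differ between the libraries beyond counting error, their ratios being 0.814 (0.595 to 1.1) and 1.11 (0.939 to 1.31). Tenocyte-like cells had 87.5 and 251 CPM, a ratio of 2.87 (2.55 to 3.24), so they ranked below these 3 classes in the DMSO library and next to FAP-like cells in the MVC library. FAP-like and perineurial-like cells could not be ordered in the DMSO library, nor perineurial-like and macrophage-like cells in either, since their intervals overlapped. Summed FAP markers were 1412 and 1296 CPM in perineurial-like cells, beside 3097 and 3543 CPM in FAP-like cells. The perineurial-like class held 150 cells here and 90 when the IGF genes took part in the clustering. The part of FAP-like cells in its Igf1 level was not tested. B cell-like and pericyte-like cells had at most 16.7 CPM in either library.

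Within FAP-like cells, the cluster led by Cxcl14 and Smoc2 and the cluster led by C7 and Gdf10 had the most Igf1. The former had 319 and 469 CPM and the latter 325 and 444 CPM in the DMSO and MVC libraries, ratios of 1.47 (1.36 to 1.59) and 1.37 (1.19 to 1.57). The cluster led by Ifi205 and Ifi203 had 128 and 169 CPM, and the cluster led by Sdk1 and Dmkn, which carried adventitial markers, had 62.7 and 110.4 CPM. All 4 clusters were thus higher in the MVC library, but only the last passed the 1.5-fold rule, with a ratio of 1.76 (1.47 to 2.11). The cluster led by Pi16 and Tmem100, which also carried adventitial markers and held 76 DMSO and 128 MVC cells, had 73 and 251 CPM. The Cxcl14 cluster held 290 of 1168 FAP-like cells in the DMSO and 533 of 1420 in the MVC library. The ratio of the whole class includes this difference in makeup. The FAP-like clusters also depended on the clustering. When the IGF genes took part, no FAP-like cluster was led by C7 and Gdf10. The Cxcl14 cluster then held 1202 cells, beside 823 here, and a cluster of 659 cells was led by Pi16 and Sdk1. At a lower Leiden resolution, Ifi205 and Sdk1 were leading genes of the same cluster, which carried adventitial markers.

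The largest difference of Igf1 among clusters of at least 100 cells per library was in tenocyte-like cells led by Angptl7 and Fmod, where it was 78.7 CPM (66.6 to 92.3) in the DMSO library and 340.1 CPM (316 to 366) in the MVC library, a ratio of 4.32 (3.62 to 5.19). Leaving out the 3 cells with most Igf1 UMIs in each library gave 3.94 (3.25 to 4.81). In tenocyte-like cells led by Col22a1 and Thbs4 the levels were 94.8 and 169.9 CPM, a ratio of 1.79 (1.52 to 2.13), and 2.29 (1.89 to 2.79) without the 3 highest cells of each library. Summed FAP markers in the Angptl7 cluster were 1487 and 1806 CPM, and summed tenocyte markers were 19031 and 20391 CPM. The 5 erythroid markers summed to 7.29 and 557 CPM there, with 96.8% of the MVC UMIs in 1 cell. The part of other cells in these ratios was not tested.

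With each cell thinned to 2000 UMIs, which left out 447 DMSO and 981 MVC cells of lower depth, the share of Angptl7 tenocyte-like cells with an Igf1 UMI was 12.7% (8.56 to 18) in the DMSO and 31.6% (25.7 to 38) in the MVC library, against 36.7% and 62.7% without thinning. In Cxcl14 FAP-like cells the thinned shares were 37.7% (32 to 43.7) and 43.6% (39.2 to 48.2), with overlapping intervals. B cell-like cells, which should not make Igf1, gave 0 of 202 cells in the DMSO library, which allows a share of up to 1.49%, and 1.1% in the MVC library, at median depths of 5071 and 5333.5 UMIs per cell. The share of Igf1-positive cells thus stood well above this background in the stromal clusters of both libraries.

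In muscle stem cell (MuSC)-like cells Igf1 was 18.4 and 47.2 CPM, a ratio of 2.56 (1.55 to 4.46), but 3 cells held 42.1% and 54% of its UMIs. Without the cells called as doublets the levels were 16.8 and 21.4 CPM, and the difference was no longer past the rule. Summed FAP markers in MuSC-like cells were 89.3 and 248 CPM and summed pericyte markers 121 and 401 CPM, and their part in the ratio was not tested.

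Igf2, the imprinted fetal growth factor, was a vascular transcript in these muscles, and EC-like cells held 64.9% and 58.2% of its UMIs. Among EC-like clusters it was nearly limited to the cluster led by Cytl1 and Edn1, which carried the arterial markers, with 348 CPM (321 to 376) in the DMSO library and 489 CPM (456 to 524) in the MVC library. The ratio there was 1.41 (1.27 to 1.56), below the 1.5-fold rule, and each of the other EC-like clusters stayed at or below 13.4 CPM. Smooth muscle cell (SMC)-like cells had 93.3 and 212 CPM, with 65 and 48 cells, and pericyte-like cells had 40.6 and 62 CPM. The MVC level was the higher in all 3 when UMIs were summed, but in pericyte-like cells the direction turned when the CPM of single cells were averaged, with a log2 ratio of -0.0818.

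Outside the vessel wall, among classes of at least 100 cells per library, Igf2 was highest in MuSC-like cells, at levels whose range overlapped that of pericyte-like cells. The MuSC-like levels were 25.2 and 64 CPM, a ratio of 2.54 (1.65 to 4.04), and 2.73 (1.7 to 4.6) without the 3 highest cells of each library. Summed SMC markers in MuSC-like cells were 27.2 and 143 CPM and summed pericyte markers 121 and 401 CPM. Summed arterial markers were 57.3 and 34.2 CPM, and the part of vascular cells in this Igf2 ratio was not tested. In Cxcl14 FAP-like cells Igf2 was 4.83 and 19.3 CPM, from 14 and 95 UMIs, a ratio of 4.01 (2.27 to 7.61). That ratio became 7.8 (3.18 to 24.8) without the 3 highest cells of each library. FAP-like cells led by Ifi205 and Ifi203 had 7.57 and 20 CPM, a ratio of 2.64 (1.74 to 4.08). Both parenchymal clusters were thus higher in the MVC library, at levels far under those of arterial EC-like cells. The other FAP-like clusters had too few Igf2 UMIs for the rule. These were 19.8 and 17.7 CPM (22 and 19 UMIs) in the C7 cluster and 7.42 and 6.45 CPM (6 and 8 UMIs) in the Pi16 cluster. The Sdk1 cluster had 0.618 and 4.78 CPM (2 and 13 UMIs). In the muscle fibre-like cells, of which there were 15 and 26, a single DMSO cell held 49 Igf2 UMIs, so no level is given. Igf2 shares 61.9% of its words of 31 bases with the overlapping same-strand gene Gm49394, and reads of the pair cannot be told apart here.

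Igf1r, the signalling receptor, was measured in each of the 15 clusters with at least 100 cells per library. It was highest in neutrophil-like cells at 1826 and 1939.7 CPM (64 and 34 cells), a ratio of 1.06 (0.945 to 1.19). EC-like cells had 421 and 510.4 CPM, MuSC-like cells 402 and 466 CPM, FAP-like cells 354 and 356 CPM and tenocyte-like cells 259 and 238 CPM. The receptor was thus found in the ligand-making stroma as well as in the vessels and stem cells. Over those 15 clusters its ratio lay between 0.773 in Angptl7 tenocyte-like cells and 1.88 in B cell-like cells, where 3 cells held 73.8% and 37.9% of the UMIs. The B cell-like value was the only 1 of the 15 past the 1.5-fold rule, with a ratio of 4.58 (2.51 to 8.74) without those cells.

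Igfbp3, which encodes the main carrier of circulating IGF-I and in tissue a growth-limiting protein of stroma and endothelium, was lower in the MVC library in all 12 clusters with at least 50 UMIs in all and 100 cells per library, and 7 of them passed the 1.5-fold rule, while the intervals of 2 EC-like clusters included 1. It was made in both libraries by FAP-like cells at 224 and 78.1 CPM, by EC-like cells at 171 and 121 CPM and by tenocyte-like cells at 158 and 105 CPM in the DMSO and MVC libraries. FAP-like cells thus ranked first in the DMSO library and last of the 3 in the MVC library, and the intervals of EC-like and tenocyte-like cells overlapped in the DMSO library. Its largest difference was in Cxcl14 FAP-like cells, with 268 CPM (249 to 287) in the DMSO library and 25.4 CPM (21.2 to 30.3) in the MVC library, a ratio of 0.095 (0.078 to 0.115). In this cluster Igf1 was the higher and Igfbp3 the lower in the MVC library.

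Adventitial FAP-like cells led by Sdk1 and Dmkn had 109 and 23.2 CPM, a ratio of 0.212 (0.159 to 0.278). The cluster led by C7 and Gdf10, which had the highest Igfbp3 level of all clusters, had 711 and 359 CPM, and its ratio of 0.504 (0.445 to 0.57) became 0.621 (0.521 to 0.738) without the 3 cells with most Igfbp3 in each library, which held 54.9% and 44.5% of the UMIs. FAP-like cells led by Ifi205 and Ifi203 had 195 and 130.5 CPM, a ratio of 0.67 (0.598 to 0.75), just short of the 1.5-fold rule. In the Cxcl14 cluster the ratio without its 3 highest cells per library was 0.0981 (0.0782 to 0.122) and in the Sdk1 cluster 0.148 (0.0938 to 0.225).

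The share of Cxcl14 FAP-like cells with an Igfbp3 UMI at 2000 UMIs was 21% (16.4 to 26.2) in the DMSO and 3.91% (2.37 to 6.04) in the MVC library, against 27.6% and 9.94% without thinning. In adventitial Sdk1 FAP-like cells it was 9.91% (6.24 to 14.7) and 2.33% (0.759 to 5.34). B cell-like cells gave 0.495% (0.0125 to 2.73) in the DMSO and 4.4% (1.21 to 10.9) in the MVC library, the latter from 4 of 91 cells. The DMSO shares of both FAP-like clusters stood above the B cell-like share, and the MVC shares lay within its interval, which is wide and belongs to cells that also held FAP marker UMIs.

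In the vessels, capillary EC-like cells led by Slc1a1 and Cldn5 had 176 and 86 CPM of Igfbp3, a ratio of 0.489 (0.411 to 0.58), and those led by Depp1 and Ablim3 242 and 148 CPM, a ratio of 0.612 (0.526 to 0.711). Arterial EC-like cells had 254 and 203 CPM, a ratio of 0.80 (0.693 to 0.922) short of the rule. Capillary EC-like cells led by Patl2 and Trim69, with 144 and 130.4 CPM and a ratio of 0.908 (0.70 to 1.17), and venous EC-like cells, with 43.4 and 35.1 CPM and a ratio of 0.809 (0.567 to 1.15), did not differ beyond counting error. Pericyte-like cells fell further, from 108 to 33.5 CPM, a ratio of 0.311 (0.215 to 0.442). SMC-like cells went the other way with 49 and 128 CPM, in 65 and 48 cells, of whose UMIs 3 cells held 77.4% and 44.6%. Tenocyte-like cells led by Col22a1 and Thbs4 had 50.9 and 15.6 CPM and those led by Angptl7 and Fmod 286 and 203 CPM, and only the former passed the rule.

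**Figure D3:**
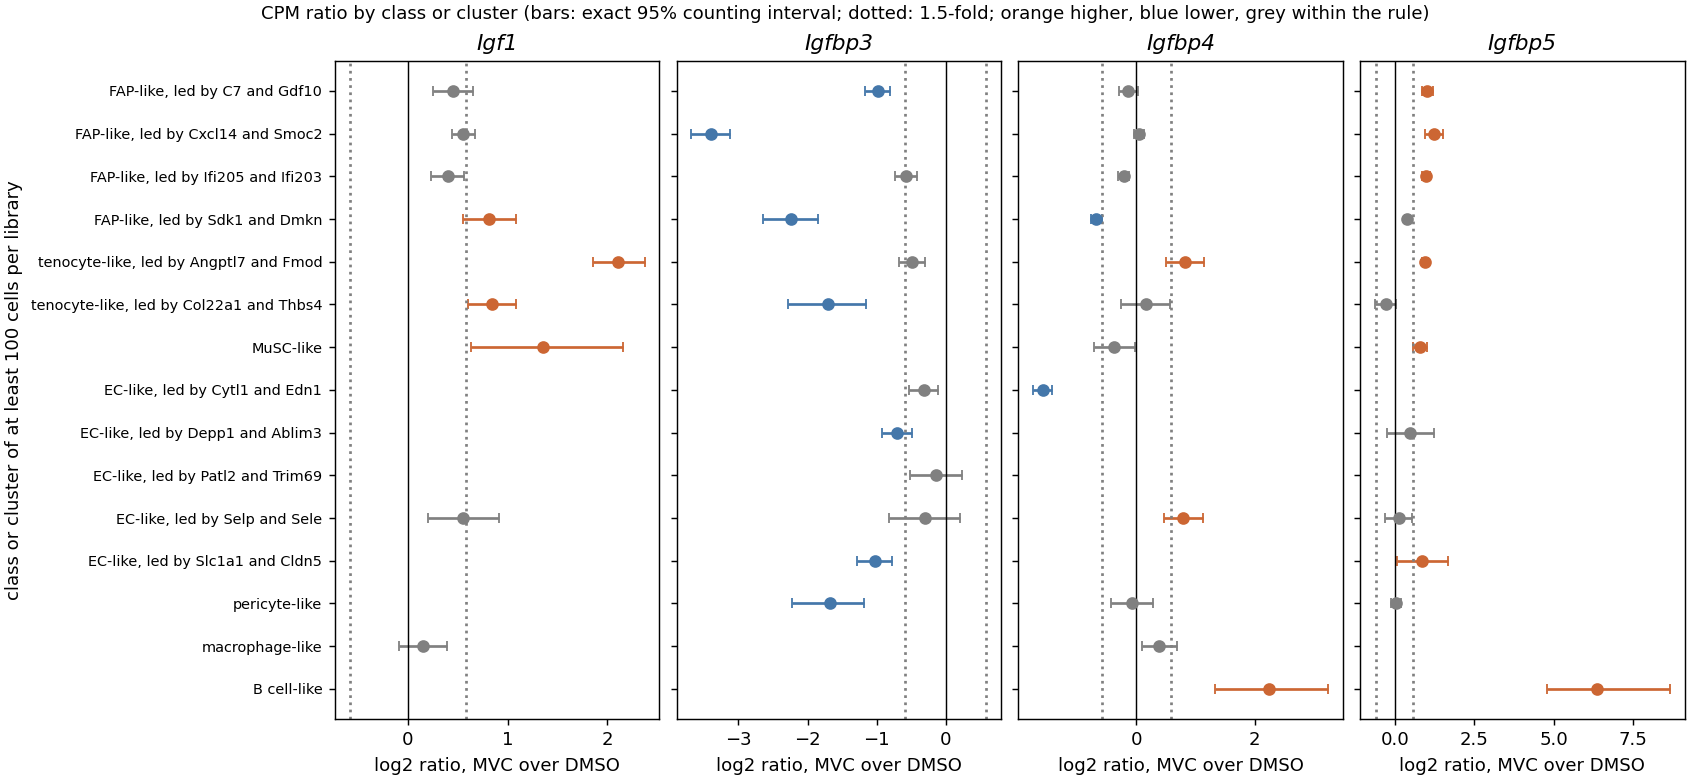
Log2 ratio of MVC over DMSO (x axis) of Igf1, Igfbp3, Igfbp4 and Igfbp5 in each class or cluster with at least 100 cells per library (rows), shown where the gene had at least 50 UMIs (points; bars, exact 95% counting interval; dotted lines, 1.5-fold). Every Igfbp3 point lies below 0, every Igf1 point lies above 0, and Igfbp4 points lie on both sides, with arterial EC-like cells led by Cytl1 and Edn1 at -1.58.

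Igfbp5, a matrix-bound binding protein that is known in muscle differentiation and in fibrosis, was highest among the classes in SMC+pericyte-like cells, a cluster with markers of both mural types, at 1923 and 2961 CPM (118 and 79 cells), then in lymphatic EC-like cells at 1639 and 2663 CPM (75 and 79 cells) and SMC-like cells at 1209.6 and 1559.8 CPM. EC-like cells of blood vessels had only 17.2 and 23.9 CPM, so among endothelial cells Igfbp5 was a lymphatic transcript. It was higher in the MVC library in 11 of the 12 clusters with enough UMIs and cells, and 7 passed the rule. These 7 include B cell-like cells, in which 3 cells held 91.5% of the MVC UMIs, and among the 11 the intervals of pericyte-like cells (1.03 (0.913 to 1.15)), venous EC-like cells (1.09 (0.809 to 1.47)) and EC-like cells led by Depp1 and Ablim3 (1.39 (0.842 to 2.35)) included 1. The 1 that was lower was Col22a1 tenocyte-like cells, with 72.2 and 59.1 CPM, a ratio of 0.819 (0.648 to 1.03), and without called doublets it was the higher there, at 48.5 and 60 CPM. In capillary EC-like cells led by Slc1a1 and Cldn5 the levels were 7.76 and 14.1 CPM, and their ratio of 1.82 (1.04 to 3.16) became 1.63 (0.818 to 3.21) without the 3 highest cells of each library.

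In tenocyte-like cells led by Angptl7 and Fmod, Igfbp5 was 709 CPM (671 to 747) in the DMSO library and 1367 CPM (1318 to 1418) in the MVC library, a ratio of 1.93 (1.81 to 2.06). Of the FAP-like clusters, the adventitial ones had the most, with 1297 and 1691 CPM in that led by Sdk1 and Dmkn and 1985 and 2988 CPM in that led by Pi16 and Tmem100. The parenchymal clusters had less, with 168 and 331 CPM in that led by Ifi205 and Ifi203 and 44.1 and 103 CPM in that led by Cxcl14 and Smoc2, but there the ratios were 1.97 (1.8 to 2.16) and 2.33 (1.92 to 2.86). In the DMSO library 3 cells held 56.5% of the Igfbp5 UMIs of the Ifi205 cluster, and without the 3 highest cells of each library the ratio was 3.66 (3.23 to 4.15). The same step gave 3.54 (2.72 to 4.66) in the Cxcl14 cluster and 2.88 (2.49 to 3.34) in the C7 cluster, which had 418 and 854 CPM of Igfbp5. The difference was thus larger without these cells in all 3 clusters.

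The share of Angptl7 tenocyte-like cells with an Igfbp5 UMI at 2000 UMIs was 32.5% (26.3 to 39.3) in the DMSO and 48.3% (41.7 to 54.9) in the MVC library, and that of Ifi205 FAP-like cells 9.5% (6.87 to 12.7) and 21.2% (17 to 25.9). Without thinning these shares were 48.8% and 66% for the tenocyte-like and 19% and 34.5% for the FAP-like cells. B cell-like cells gave 0 of 202 cells in the DMSO library, which allows a share of up to 1.49%, and 4.4% in the MVC library. MuSC-like cells had 226 and 395 CPM, a ratio of 1.75 (1.51 to 2.03), and 228 and 414 CPM without called doublets.

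**Figure D4:**
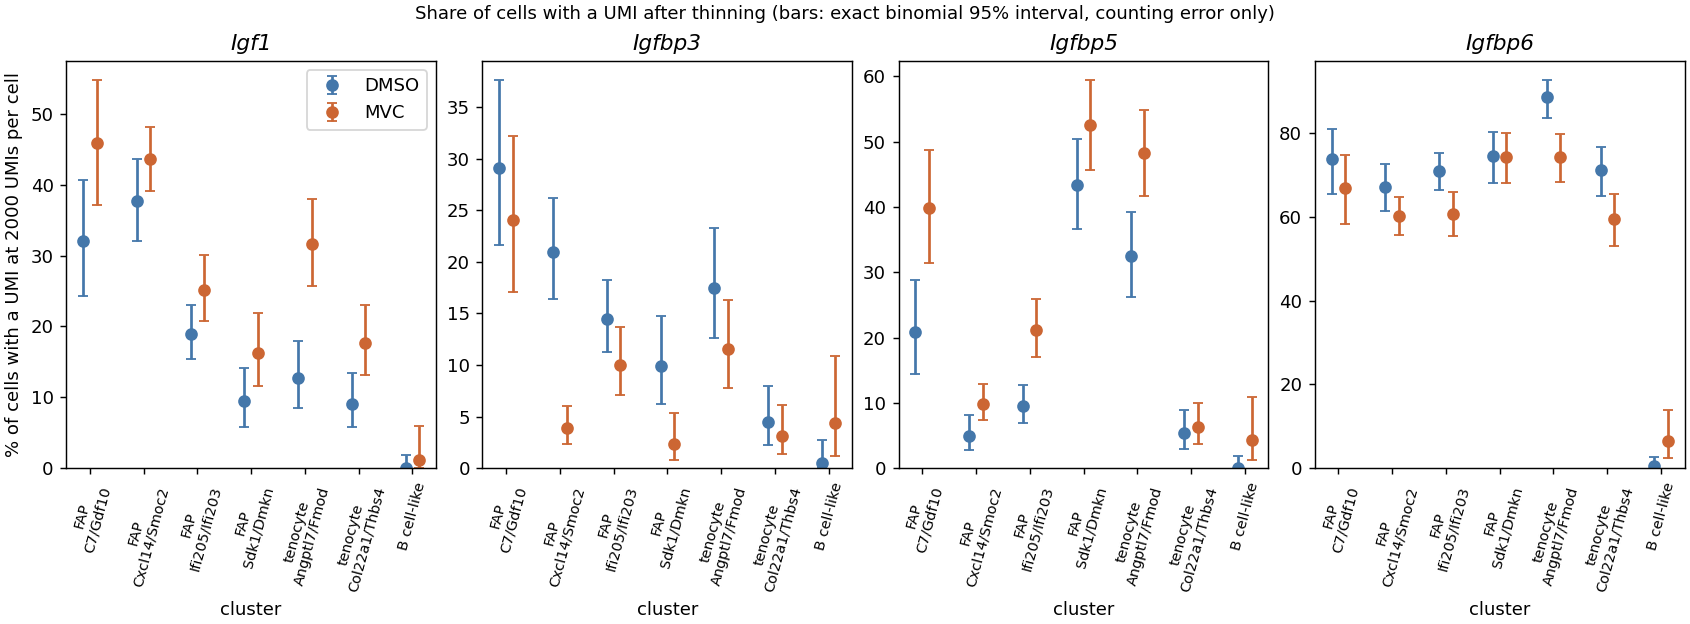
Share of cells with a UMI of Igf1, Igfbp3, Igfbp5 or Igfbp6 (y axis, % of cells after thinning to 2000 UMIs per cell) in FAP-like and tenocyte-like clusters and in B cell-like cells as background (x axis), for the DMSO (blue) and MVC (orange) libraries with exact binomial 95% intervals. Igf1 and Igfbp5 shares are higher in the MVC library in each stromal cluster shown, the Igfbp3 share of Cxcl14 FAP-like cells is 21% in the DMSO and 3.91% in the MVC library, and Igfbp6 is found in most stromal cells of both.

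Igfbp4, which holds IGFs inactive until the protease PAPP-A cleaves it, was mainly a FAP transcript, with 71% and 77.1% of its UMIs in FAP-like cells at 658 and 543 CPM. It went in opposite directions in different cells. In arterial EC-like cells it was 740.0 CPM (701 to 780.3) in the DMSO library and 247 CPM (224 to 273) in the MVC library, a ratio of 0.334 (0.299 to 0.374), and the share of cells with a UMI at 2000 UMIs was 49% (43.2 to 54.8) and 30.6% (25 to 36.6), against 66.8% and 48.9% without thinning. B cell-like cells gave 0.495% and 3.3% at 2000 UMIs. The 9 EC markers summed to 8082 and 7734 CPM in this cluster and the 7 arterial markers to 1266 and 1345 CPM.

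Adventitial FAP-like cells led by Sdk1 and Dmkn were also lower, with 875 and 548 CPM, a ratio of 0.627 (0.588 to 0.667), and those led by Pi16 and Tmem100 had 1126 and 670.2 CPM. In contrast, Cxcl14 FAP-like cells did not move beyond counting error, with 578 and 594 CPM and a ratio of 1.03 (0.968 to 1.09). Venous EC-like cells led by Selp and Sele were higher, with 65.6 and 114 CPM and a ratio of 1.73 (1.38 to 2.19), as were Angptl7 tenocyte-like cells, with 66.2 and 117 CPM and a ratio of 1.76 (1.42 to 2.2).

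Igfbp6, which prefers IGF-II over IGF-I, marked the connective tissue. Perineurial-like cells had 2669.9 and 3063 CPM (79 and 71 cells), tenocyte-like cells 1068 and 815 CPM and FAP-like cells 864 and 723 CPM, while EC-like cells had 5.24 and 10.7 CPM. Among clusters of at least 100 cells per library the highest level was in Angptl7 tenocyte-like cells, 1483 and 1097 CPM, a ratio of 0.74 (0.70 to 0.782). It was lower in the MVC library in the Cxcl14, Ifi205 and C7 clusters of FAP-like cells, with ratios of 0.742 (0.702 to 0.786), 0.708 (0.669 to 0.748) and 0.814 (0.743 to 0.891), and near 1 in the Sdk1 cluster at 1.05 (1.0 to 1.11). None of these stromal ratios reached 1.5-fold. The share of Angptl7 tenocyte-like cells with an Igfbp6 UMI at 2000 UMIs was 88.7% (83.6 to 92.6) and 74.4% (68.3 to 79.8), against 98.6% and 93.4% without thinning, and B cell-like cells gave 0.495% and 6.59%. The perineurial-like levels depended on the clustering and were 5001 and 3879 CPM when the IGF genes took part in it. The 3 clusters past the rule, B cell-like, macrophage-like and venous EC-like cells, had at most 145 CPM, and the macrophage-like ratio of 2.72 (1.49 to 5.25) became 1.88 (0.845 to 4.46) without the 3 highest cells of each library.

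Igfbp7, found at its highest levels in vascular cells, was also present in stroma. Capillary EC-like cells led by Slc1a1 and Cldn5 had 2041 and 2289.9 CPM, those led by Patl2 and Trim69 1794 and 2292 CPM, and venous EC-like cells 1929 and 1612 CPM. Arterial EC-like cells had 464 and 590.1 CPM, the lowest level among EC-like clusters in both libraries and the reverse of Igf2 and Igfbp4, which were highest there among EC-like clusters. SMC-like and pericyte-like cells had 1396 and 1302 CPM and 1206 and 949 CPM. In stromal and vascular clusters of at least 100 cells per library the ratios lay between 0.787 in pericyte-like and 1.32 in Angptl7 tenocyte-like cells. Macrophage-like cells had 90.3 and 44.6 CPM, a ratio of 0.494 (0.38 to 0.64), beside summed EC markers of 506 and 226 CPM.

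Igfbp2 was close to the limit of detection, with 16 UMIs in the DMSO and 32 in the MVC library. In the MVC library 22 of the 32 lay in tenocyte-like cells led by Col22a1 and Thbs4, all of them in 3 cells, and the same cluster had 0 in the DMSO library. No ratio is given.

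Nerve-associated and T/NK-like cells had under 100 cells in at least 1 library, and their values are given as levels. Igfbp5 in perineurial-like cells, which form the sheath of nerve bundles, was 341 and 1011 CPM, higher in the MVC library. This class also held summed FAP markers of 1412 and 1296 CPM. Its size and its Igfbp6 levels depended on the clustering, and the part of other cells in its Igfbp5 levels was not tested. In Schwann-like cells led by Cadm2 and Chl1 (45 and 53 cells) Igfbp5 was 689 and 18.4 CPM, but 3 cells held 98.1% of the DMSO UMIs. T/NK-like cells (196 and 62 cells) had 1.73 and 144 CPM of Igfbp5 and 7.49 and 107 CPM of Igfbp6, beside summed FAP markers of 34.6 and 214 CPM. The 10 tenocyte markers summed to 14.4 and 1066 CPM there, the 9 EC markers to 337 and 1109 CPM and the 4 mast cell markers to 1464 and 2536 CPM. The part of these other cell types in the T/NK-like values was not tested.

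B cell-like cells, used here as background, were not equal between the libraries. Igfbp5 was 2.53 and 207 CPM, Igfbp6 4.22 and 145 CPM and Igfbp4 11.8 and 55.8 CPM in the DMSO and MVC libraries, and 3 cells held 91.5% of the MVC UMIs of Igfbp5. Without called doublets, which were 4.85% of these cells in the DMSO and 9.43% in the MVC library, the levels were 1.88 and 18.7 CPM for Igfbp5 and 1.88 and 20.5 CPM for Igfbp6. All 7 FAP markers were found in these cells, with a sum of 24.5 and 302 CPM, and the 10 tenocyte markers, of which 5 and 4 were at 0, summed to 16 and 224 CPM. Igfbp7 was 58.2 and 109 CPM, and 31 and 22.4 CPM without called doublets. The part of stromal RNA in the B cell-like values was not tested.

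Counted over the 7 classes with at least 100 cells per library, 21 of the 63 pairs of a member and a class were past the 1.5-fold rule. The 63 include pairs under 50 UMIs, which could not pass, and 5 of the 21 were in B cell-like cells, used here as background. In FAP-like cells 3 of 8 members with at least 50 UMIs passed (Igf1 and Igf2 higher, Igfbp3 lower), and 13.5% of all genes did. In EC-like cells it was 3 of 8 (Igf2 and Igfbp6 higher, Igfbp4 lower) against 12%, and in tenocyte-like cells 3 of 7 (Igf1, Igfbp4 and Igfbp5 higher) against 12.7%. In MuSC-like cells Igf1, Igf2 and Igfbp5 of 7 members passed against 15.5%, in pericyte-like cells Igf2 and Igfbp3 of 7 against 12.5%, in macrophage-like cells Igfbp6 and Igfbp7 of 5 against 14.1%, and in B cell-like cells all 5 measured against 17%.

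By cluster, in FAP-like cells 3 of 8 members passed in that led by Cxcl14 and Smoc2, where 15% of all genes did, 2 of 8 in that led by Ifi205 and Ifi203 (9.95%), 3 of 7 in that led by Sdk1 and Dmkn (10.7%) and 2 of 7 in that led by C7 and Gdf10 (15.1%). In tenocyte-like cells it was 3 of 7 members in the cluster led by Angptl7 and Fmod (15%) and 2 of 7 in that led by Col22a1 and Thbs4 (13.9%). In EC-like clusters it was 2 of 4 members in that led by Slc1a1 and Cldn5 (11.5%), 1 of 4 in that led by Depp1 and Ablim3 (14%), 1 of 5 in the arterial cluster (9.62%), 2 of 7 in the venous cluster (15.8%) and 0 of 3 in that led by Patl2 and Trim69 (18.7%). With so few members per cluster these counts describe the members and carry no test. The median gene of FAP-like cells had a log2 ratio of 0.14, and that of the Cxcl14 cluster 0.16, so small positive ratios there lie near the shift of all genes.

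The other 33 genes of an IGF pathway list (receptors, binding protein proteases, adaptors, the PI3K and AKT arm, growth hormone input and Igf2 mRNA binding) passed the rule about as often as genes in general in FAP-like cells. In FAP-like cells 24 had at least 50 UMIs, 3 were past the rule to higher and 0 to lower values, and their median log2 ratio was 0.12 beside 0.14 for all genes tested. The 3 were Pappa, the protease that cleaves IGFBP-4, with 38.8 and 63.6 CPM and a ratio of 1.64 (1.47 to 1.83), Htra1, a serine protease that cleaves IGFBP-5, with 51.5 and 84.6 CPM and a ratio of 1.64 (1.49 to 1.81), and Irs1, the adaptor of the IGF-I and insulin receptors, with 49.3 and 80.1 CPM and a ratio of 1.62 (1.47 to 1.8). In tenocyte-like cells 1 of 25 passed to higher and 2 to lower values, with a list median of -0.27 beside 0.05 for all genes. The share of all genes past the rule there was 12.7%.

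Pappa was again the higher gene in tenocyte-like cells, with 1.66 and 18.1 CPM from 7 and 80 UMIs, a ratio of 10.9 (5.07 to 28.1). In the Angptl7 cluster it had 2.08 and 32.7 CPM, from 4 and 69 of these UMIs. In the whole tenocyte-like class, Adam12, a protease that cleaves IGFBP-3 and IGFBP-5, was lower at 19.9 and 10.2 CPM. Stc2, an inhibitor of PAPP-A, was lower there at 9.72 and 3.4 CPM. The class with more Igf1 and Igfbp4 in the MVC library thus also had more Pappa and less Stc2. List genes passed the rule there about as often as genes in general, and whether these differences belong together was not tested. In MuSC-like cells 3 of 22 passed to higher and 2 to lower values, beside 15.5% of all genes. Pappa had 50.5 and 16.3 CPM and Adam12 93.2 and 26.1 CPM there, both lower. The higher genes were the transcription factors Stat5a at 76.7 and 122 CPM and Stat5b at 72.8 and 128 CPM, and their feedback inhibitor Socs2 at 38.8 and 65.7 CPM. They are listed under growth hormone input, but the other genes of that group, Ghr and Jak2, were not past the rule in MuSC-like cells.

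In EC-like cells 3 of 22 list genes passed to higher and 0 to lower values, beside 12% of all genes. The 3 were Htra1 (9.13 and 18.5 CPM), Irs2 (5.24 and 9.6 CPM) and Stat5a (49.4 and 79.2 CPM). Macrophage-like cells had 1 lower gene of 18, Socs2, at 33.6 and 7.59 CPM, B cell-like cells 1 higher gene of 12, Stat5a, and pericyte-like cells 0 of 19. Of all genes, 14.1% passed in macrophage-like, 17% in B cell-like and 12.5% in pericyte-like cells. In the weighting over all clusters, Grb14, an adaptor that inhibits insulin receptor signalling, was higher with a ratio of 1.76 (1.44 to 2.16). Stc2, at 0.538 (0.37 to 0.784), and H19, the imprinted RNA next to Igf2, at 0.631 (0.462 to 0.862), were lower. All 3 genes had low levels. They were 3 of 29 list genes with enough UMIs, beside 9.12% of all genes. Jak2, the kinase of the growth hormone receptor, was higher in FAP-like cells led by Cxcl14 and Smoc2 (109.9 and 167 CPM), Ifi205 and Ifi203 (204 and 339 CPM) and Sdk1 and Dmkn (139 and 239 CPM). Irs2 was the lower gene of the Cxcl14 cluster, with 289.9 and 179.9 CPM. There 4 of 23 list genes passed, Htra1 and Pappa being the others, beside 15% of all genes. In the Ifi205 cluster 3 of 23 passed (also Stat5a and Htra1), beside 9.95%, and in the Sdk1 cluster 2 of 21 (also Stat5a), beside 10.7%. In the C7 cluster 5 of 23 passed (Pappa2, Pappa, Foxo3, Igf2bp2 and Irs1), 3 higher and 2 lower, beside 15.1% of all genes.

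Across the 14 classes and both libraries (28 points, with classes of a library sharing depth and chemistry), the genes whose log2(CPM + 10) followed each member most closely by Pearson correlation are given as a description. Those of Igfbp7 were Meox2 (r = 0.93), Cavin1 (r = 0.87) and Ehd2 (r = 0.87), and those of Igfbp6 were Olfml3 (r = 0.92), Nalcn (r = 0.91) and Myoc (r = 0.90). Igfbp5 was closest to Serpine2 (r = 0.90), Cacna2d1 (r = 0.89) and Meis2 (r = 0.88), Igf2 to Fzd4 (r = 0.89), Tspan12 (r = 0.88) and Ttll7 (r = 0.86) and Igf1 to Dnm1 (r = 0.85), Nupr1 (r = 0.84) and Fn1 (r = 0.84). For Igfbp4 they were Atp2b4 (r = 0.84), Calu (r = 0.83) and Junb (r = 0.83), for Igfbp3 Galnt15 (r = 0.80), Msx1 (r = 0.74) and Gadd45g (r = 0.74) and for Igf1r Mettl9 (r = 0.82), Qsox1 (r = 0.77) and Anxa11 (r = 0.77). Among the members themselves the closest pair was Igfbp4 and Igfbp5 (r = 0.68), followed by Igf1 and Igfbp6 (r = 0.66). Igfbp2, which does not reach 50 CPM in any class, was closest to Fbn2 (r = 0.87), Phlda3 (r = 0.79) and Wnt6 (r = 0.79).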

How the data were processed

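Limb-muscle mononuclear cells were measured as 1 DMSO and 1 MVC library on the 10x Genomics 3′ platform. Gene by cell tables of raw UMI counts were deposited by the authors, and the submitters' processing notes name Cell Ranger 7.0.0, Seurat 5.0.1 and the genome build mm10. Only barcodes called as cells were used here, so RNA from outside the cells was not corrected. The libraries held 39150511 UMIs in 5812 barcodes and 36063575 UMIs in 6047 barcodes. Barcodes under 500 detected genes or over 10% mitochondrial UMIs were dropped, and 236 (4.34%) and 238 (4.36%) of the remaining cells were marked as doublets but left in. The number marked was set in advance at an assumed rate of 0.8% per 1000 cells. A comparison with simulated doublets only ranked the cells. Cells of both libraries were clustered together (2000 variable genes without the IGF genes, 30 principal components, 20 neighbours, Leiden resolution 1) with Python 3.11.15, numpy 2.4.6, scipy 1.17.1, scikit-learn 1.9.0, scanpy 1.11.5 and leidenalg 0.10.2, and named from marker lists. UMIs were summed per class and library. All intervals are at 95%: exact Poisson for CPM, exact conditional for ratios, Clopper-Pearson for shares, and the delta method for the ratios weighted over clusters. A share of 0 was given the limit that 3 counts of the total allow. Scripts were tested on simulated data.

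All 9 members were described in every class of at least 100 cells per library, with smaller classes given for their levels. From the pathway list, up to 5 genes with the largest log2 ratio among those past the fold in a class were to be named, and for each member the 3 genes with the best correlation among genes of at least 50 CPM in 1 class. The list genes named for FAP-like clusters fall under this rule. The members and lists were chosen with earlier results of these data known. Alternatives were a stricter cell filter, other scalings, fold and UMI limits, other clusterings, means over cells and removal of doublets, and leaving out the 3 cells with most UMIs of a gene was added after seeing the data. Gene positions are from GENCODE on GRCm38, the same assembly as mm10.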

Additional observations from a re-analysis of the deposited data

Results flagged for a closer look

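Igfbp4 and Igfbp7 had ratios on opposite sides of 1 in different cell classes. The Igfbp4 ratio of MVC over DMSO was 4.72 in B cell-like cells and 0.334 in arterial EC-like cells led by Cytl1 and Edn1, and that of Igfbp7 was 1.87 in B cell-like and 0.494 in macrophage-like cells. With 1 library per group neither difference between classes was tested. The B cell-like values came from 14 and 38 UMIs of Igfbp4 and 69 and 74 UMIs of Igfbp7 in the DMSO and MVC libraries. Leaving out the 3 cells with most Igfbp4 UMIs in each library left 2 and 12 UMIs of Igfbp4. Without called doublets the Igfbp7 ratio of B cell-like cells turned to lower in the MVC library, with 31 and 22.4 CPM and a log2 ratio of -0.47, which is the direction of macrophage-like cells.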

How the results depend on the processing

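No paired analysis was possible because each group was 1 library, and for the same reason no replicate could be left out. Of the 21 member and class pairs past the 1.5-fold rule, 12 passed a fold of 2, and between 16 (without called doublets) and 26 (no UMI minimum) passed under the other settings. The log2 ratio of Igfbp7 in B cell-like cells changed sign to -0.47 without called doublets, and that of Igf2 in pericyte-like cells to -0.0818 as a mean over cells. The causes were not tested. For the ratios weighted over clusters, scaling by the median gene ratio gave log2 ratios of 0.0266 for Igf1r, -0.41 for Igfbp4, 0.57 for Igfbp5, -0.27 for Igfbp6 and 0.0345 for Igfbp7. Clustering with the IGF genes gave -1.04 for Igfbp3, 0.67 for Igfbp5, -0.25 for Igfbp6 and 0.063 for Igfbp7, and a Leiden resolution of 0.5 gave -0.26 for Igfbp6. Means over cells gave 0.12 for Igf1r and -0.25 for Igfbp6, the stricter cell filter 0.0491 for Igf1r, and named classes as the only strata 0.85 for Igf1, -0.30 for Igfbp4 and 0.0372 for Igfbp7. No weighted ratio of the 9 genes changed sign under these settings, and only Igfbp5 under scaling by the median gene ratio fell short of 1.5-fold among the 4 past it. The FAP-like clusters, and with them the contrast of parenchymal and adventitial clusters, depended on the clustering. Few UMIs limit Igfbp2 everywhere and Igf1 and Igf2 in small classes. The shares at 2000 UMIs per cell leave out the shallowest cells.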
